A study of Mus musculus with 20 samples.

Results

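Potassium channel genes, taken as every gene whose symbol begins with Kcn except antisense and opposite-strand transcripts, were followed in hearts of mice with and without Sorbs2. The rule found 88 genes among the 19222 in the deposited tables, 83 of them in the table of 6-month hearts and 81 in the table of 6-week hearts, with 76 in both. It left out 4 symbols. The Sorbs2 protein is a cytoskeletal adaptor found at Z-discs, and the series title names diastolic dysfunction and calcium handling in its absence. Poly(A) RNA was sequenced from 20 mice in 5 groups. At 6 weeks of age these were Sorbs2 knockout (KO, 3 mice) and wild-type (WT, 3 mice). At 6 months they were knockout mice injected on postnatal day 2 with AAV9-Tnnt2-Sorbs2, a viral vector expressing Sorbs2 from the cardiomyocyte promoter of Tnnt2 (KO+AAV, 4 mice), untreated knockout mice (KO, 5 mice) and untreated wild-type mice (WT, 5 mice). No group received a vector without Sorbs2, so the virus and its cargo cannot be told apart. The knockout allele and the strain were not given.

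Potassium channels let potassium leave the cardiomyocyte and so end the action potential and hold the resting potential. In the mouse ventricle the early, fast phase of repolarisation is carried by the transient outward current, built from the pore proteins of Kcnd2 and Kcnd3 and the calcium-binding subunit of Kcnip2. Slower voltage-gated channels follow, inward rectifiers and tandem-pore leak channels set the resting potential, and further channels are closed by ATP. Many other members of the family work mainly in neurons, glia or smooth muscle, and a ventricular sample holds them at low levels.

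Values are the authors' normalised counts, and each table was normalised on its own, so levels are compared within an age. Library totals were 11359135 to 13670340 at 6 months and 6705133 to 8240294 at 6 weeks. Sorbs2 itself averaged 324.9 ± 45.3 in KO and 1716.6 ± 291.8 in WT hearts at 6 weeks (SD, n = 3 each; exact permutation p = 0.1, the smallest that 3 against 3 libraries allow). At 6 months it averaged 1020.5 ± 624.6 in KO (n = 5) and 5040.2 ± 369.4 in WT hearts (n = 5; exact permutation p = 0.00794), and 11015.8 ± 6762.5 in KO+AAV hearts (SD, n = 4; exact permutation p = 0.0159 against KO). KO+AAV libraries 1 and 2 held 4696 and 5753, near the WT range of 4562 to 5398. KO+AAV libraries 3 and 4 held 15690 and 17923, and the part of this split in the member values was not tested. KO libraries 1 and 5 at 6 months held more Sorbs2 (1648 and 1755) than the other 3 (493.7 to 612.3). These same libraries were also the lowest pair of the KO group in 20 of 47 members tested, a share that was 28.6% over all genes. Xist, a transcript of female cells, was expressed in 2 of 4 KO+AAV, 0 of 5 KO and 2 of 5 WT hearts at 6 months and in 1 of 3 hearts per group at 6 weeks. The tissue is labelled left ventricle, but summed markers of atrial muscle stood at 44174 to 76571 in KO and 42820 to 73510 in WT hearts at 6 weeks. At 6 months the same sums were 420.1 to 507.2 in KO+AAV, 346.1 to 1673 in KO and 358.1 to 634.4 in WT hearts. Members known for atrial expression (Kcnk3, Kcnj3, Kcnj5, Kcna5) are therefore given with these sums in mind at 6 weeks, and the part of atrial RNA in their levels was not tested.

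A member was tested where its value reached 10 in at least 4 libraries at 6 months or 3 at 6 weeks, which 47 and 42 members did. Of the 36 members not tested at 6 months, 30 stayed under 10 in every library and none exceeded 18.4 (Kcnip1). Of the 39 not tested at 6 weeks, 31 stayed under 10 and the highest value was 23.7 (Kcnk5). Per kb of exon, Kcnk3, a tandem-pore leak channel, was the most abundant member in WT hearts at both ages, with 1197 normalised counts per kb at 6 months and 2500.0 at 6 weeks. Kcnip2 came next with 944.9 and 372.8. At 6 months these were followed by Kcng2, an electrically silent subunit (374.6), Kcnj11, the pore of the ATP-sensitive channel (349.2), and Kcnj14, an inward rectifier (289.0). Kcna5 (278.2) and Kcnh2 (272.1) lay within the spread of Kcnj14. At 6 weeks the order after Kcnip2 was Kcnh2 (209.1), Kcng2 (157.2) and Kcnj11 (111.4). Together the members made up 0.131% to 0.150% of the library total in KO+AAV, 0.0901% to 0.132% in KO and 0.151% to 0.165% in WT hearts at 6 months.

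**Figure D1:**
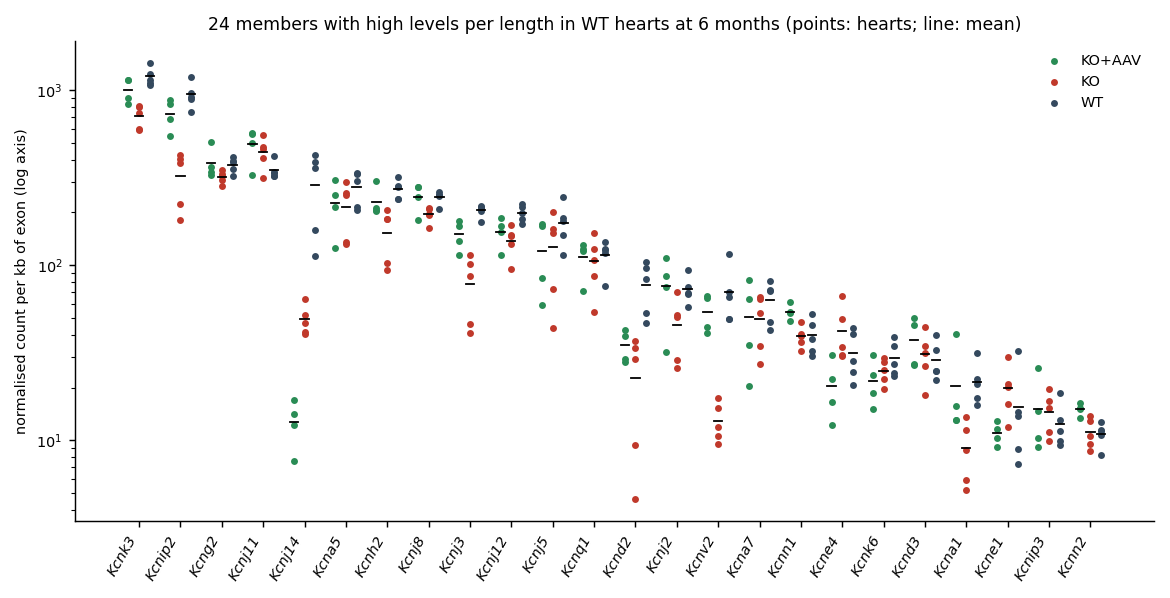
Levels of 24 members with high means per length in WT hearts at 6 months, in normalised counts per kb of exon on a log axis. Points are libraries of KO+AAV, KO and WT hearts and short lines are group means. Kcnk3 and Kcnip2 lead in WT hearts, and the points of Kcnip2, Kcnj3, Kcnv2 and Kcnj14 in KO hearts lie wholly below those of WT hearts.

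In 6-month hearts the knockout changed 15 of 47 tested members (31.9%), against 16.3% of all genes tested, by limma's moderated test with Benjamini-Hochberg adjusted p under 0.05. The 10 that fell included Kcnj14, Kcnv2, Kcnd2, Kcnip2, Kcnj3, Kcna1, Kcnh2, Kcnk3 and Kcnj12 (21.3% of the members tested and 8.18% of all genes). The 5 that rose were Kcnma1, Kcnj15, Kcnk2, Kcnc1 and Kcnn3 (10.6% of members and 8.13% of all genes). Kcnma1 could be tested only because of its higher values in KO hearts. The median log2 change was -0.29 over the members and 0.002 over all genes. KO libraries lay wholly below WT libraries for 11 members (7.29% of all genes did so) and wholly above for 4 (6.56% of all genes). Of 16 members of the main cardiac currents, 6 fell, none passed the test upward, and 12 had a negative log2 change. By class, 4 of 17 voltage-gated pore subunits fell and 1 rose, 3 of 9 inward rectifiers fell and 1 rose, and 1 of 5 tandem-pore channels changed in each direction. Of 6 accessory subunits 1 fell, and of 8 calcium- or sodium-activated channels 2 rose. With libraries scaled to equal totals, 6 members were higher and 9 lower, while all genes split into 1775 higher and 653 lower, against 1091 and 1098 as deposited.

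Cell-type markers moved in the same hearts. Cardiomyocyte markers summed to 813101 to 1097669 in KO and 1288091 to 1562697 in WT hearts, with 3 of 10 lower (Myh6, Tnni3, Myl3). Fibroblast markers summed to 42930 to 59357 in KO and 30599 to 45640 in WT hearts, with 6 of 10 higher, and none of 10 endothelial markers passed the test. Skeletal muscle markers summed to 3091 to 5165 in KO and 469.8 to 828.8 in WT hearts, with 1 of 3 higher (Mybpc2) and 1 lower (Tnni2). Their part in the changes of the channel genes was not tested, and in bulk RNA fewer cells of a type and less RNA per cell cannot be told apart.

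**Figure D2:**
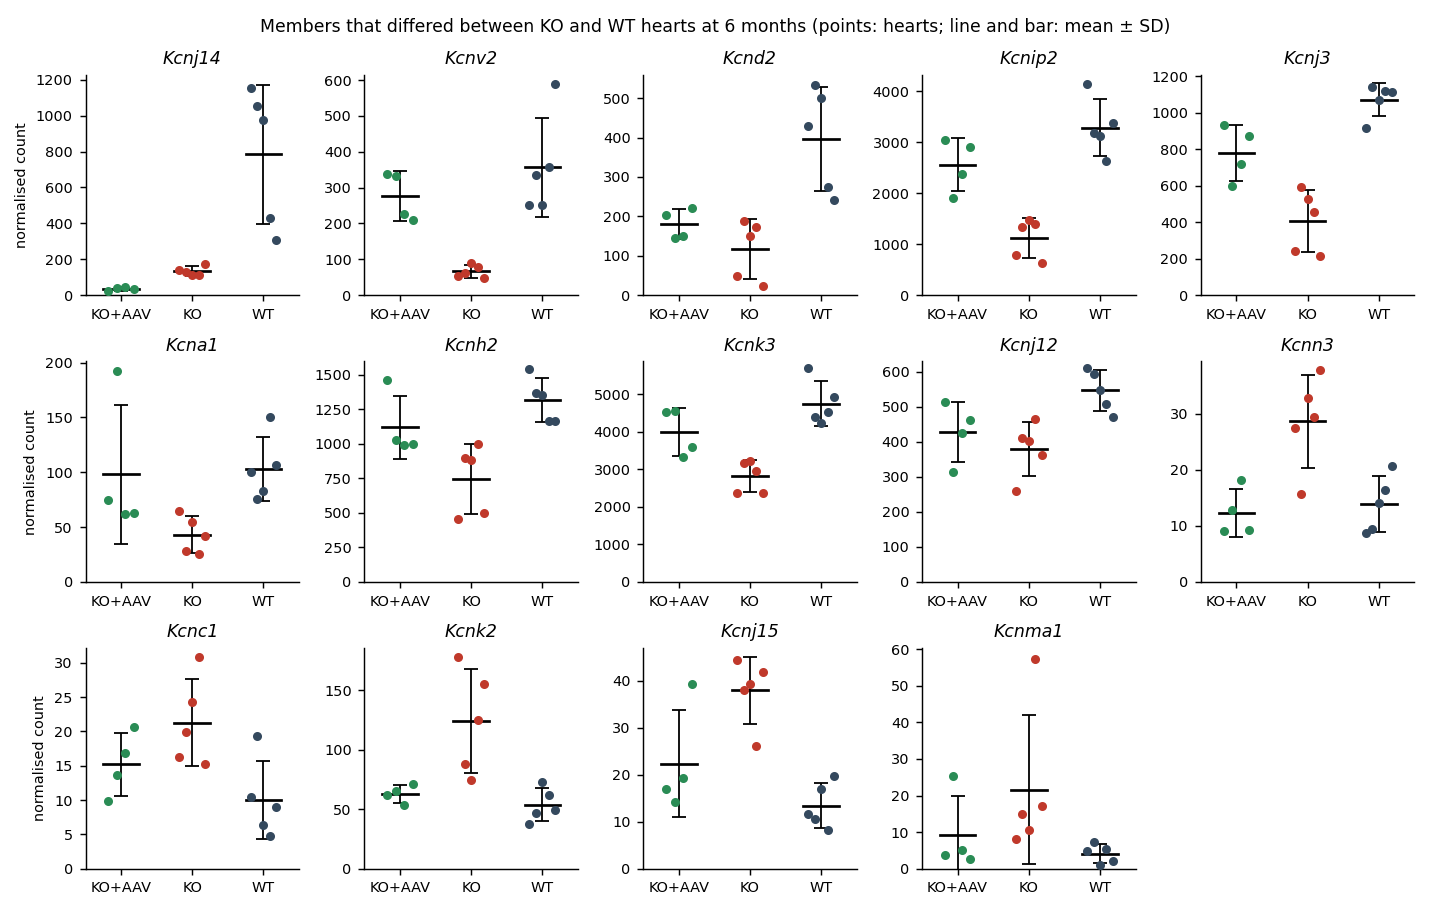
Normalised counts of 14 members that differed between KO and WT hearts at 6 months, in order of log2 change. Points are libraries of KO+AAV, KO and WT hearts from left to right, lines are means and bars are SD. Kcnj14 is lowest in KO+AAV hearts, while Kcnv2, Kcnip2 and Kcnj3 of KO+AAV hearts lie above every KO library.

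The genes of the transient outward current were unequally affected. Kcnip2 (chromosome 19, 45791839 to 45816061, minus strand, mm10) had 776.5, 1337.0, 1477.4, 1402.2 and 627.7 normalised counts in KO hearts, against 4148.5, 3174.9, 3110.6, 2620.8 and 3367.7 in WT hearts. Every KO heart was below every WT heart, and the 2 lowest were KO libraries 1 and 5. The log2 change was -1.61 ± 0.23 (SE), a 3.06-fold decrease with limma adjusted p = 0.000222. Kcnd2 (chromosome 6, 21215503 to 21729805, plus strand) had 48.7, 189.1, 150.0, 173.1 and 23.8 in KO hearts, against 429.3, 534.7, 499.6, 273.7 and 240.5 in WT hearts. The groups did not overlap, and the log2 change was -2.06 ± 0.47 (SE; limma adjusted p = 0.00683). Without KO libraries 1 and 5, which hold the 2 lowest values, the log2 change of Kcnd2 was -1.14, and the call held. Kcnd3, the other pore gene of this current, averaged 297.8 ± 92.3 in KO and 276.6 ± 69.8 in WT hearts (SD, n = 5 each; log2 change 0.08 ± 0.25 SE, limma adjusted p = 0.881). Per kb, the ratio of Kcnd2 to Kcnd3 ran from 0.173 to 1.16 in KO and from 1.17 to 3.92 in WT hearts, so the highest KO ratio lay just under the lowest WT ratio.

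The stretches of 250 bases before the RefSeq starts of Kcnip2, Kcnd2 and Kcna5 (GRCm38.p6, printed 5′ to 3′ on the strand of the gene) are shown because Kcnip2 and Kcnd2 fell together and Kcna5 moved the other way at 6 weeks. An entry was at hand for 65 of the 88 members. Capitals mark CCACCC, letters recognised by Kruppel-like factors, on either strand (as GGGTGG on the reverse), and CATTCC, the core of the M-CAT element. They lie at chr19:45816064-45816313 (minus strand), chr6:21215096-21215345 (plus strand) and chr6:126535556-126535805 (minus strand).
Kcnip2: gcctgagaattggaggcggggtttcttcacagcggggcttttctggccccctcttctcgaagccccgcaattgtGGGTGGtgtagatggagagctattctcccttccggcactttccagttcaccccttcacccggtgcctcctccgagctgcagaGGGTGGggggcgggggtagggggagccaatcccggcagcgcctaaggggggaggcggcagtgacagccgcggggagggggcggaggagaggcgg
Kcnd2: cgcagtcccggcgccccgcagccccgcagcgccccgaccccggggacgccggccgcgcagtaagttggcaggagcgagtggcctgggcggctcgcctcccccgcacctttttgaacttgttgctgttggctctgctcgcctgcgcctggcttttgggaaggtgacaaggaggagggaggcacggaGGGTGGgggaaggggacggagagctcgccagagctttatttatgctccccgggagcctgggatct
Kcna5: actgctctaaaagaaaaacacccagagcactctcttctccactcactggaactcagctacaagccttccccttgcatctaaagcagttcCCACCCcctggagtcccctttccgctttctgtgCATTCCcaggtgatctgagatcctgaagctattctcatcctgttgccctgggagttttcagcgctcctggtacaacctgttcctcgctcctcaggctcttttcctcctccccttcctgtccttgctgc

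CCACCC began 176 and 94 bases before the start of Kcnip2 and 65 bases before that of Kcnd2, each time on the reverse strand. In Kcna5 it stood 161 bases and CATTCC 128 bases before the start, both on the forward strand. Of 32851 mouse promoter windows of this table, 28.1% held CCACCC and 12.6% CATTCC on either strand. The searched letters of the estrogen-related receptor half-site (AAGGTCA, in 4.08% of windows), the GATA factors (AGATAA, 9.99%), MEF2 (in 3.2%), the Iroquois factors (ACANNTGT, 6.31%), the TATA box (TATAAA, 12.4%) and glucocorticoid response element (in 0.00913%) were in none of the 3. The window of Kcnj3, a member that also fell at 6 months, was searched too and is not printed. It held no match to these letters, nor to CCACCC or CATTCC. A match of letters is a description only. Among 16 listed transcription factors known to act on cardiac potassium channel genes, 3 fell at 6 months and none passed the test upward, against 8.18% and 8.13% of all genes. Klf15, a Kruppel-like regulator of Kcnip2 in the mouse heart, averaged 531.4 ± 73.4 in KO and 770.3 ± 108.5 in WT hearts (SD, n = 5 each; log2 change -0.54, limma adjusted p = 0.0101). Esrra (log2 change -0.39) and the thyroid hormone receptor gene Thrb (-0.69) fell as well. At 6 weeks Klf15 averaged 282.5 ± 117.8 in KO and 155.9 ± 42.3 in WT hearts (SD, n = 3 each). Its log2 change there was 0.78 (limma adjusted p = 0.292), where that of Kcnip2 was -0.89 (limma adjusted p = 0.0792). Any link between Klf15 and Kcnip2 in these hearts was not tested.

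Among the remaining voltage-gated subunits, Kcnv2, whose protein is silent alone and modifies partner channels, showed the smallest p. It had 54.0, 60.4, 89.4, 78.4 and 48.4 normalised counts in KO hearts, against 251.8, 336.1, 250.7, 357.7 and 588.5 in WT hearts. No KO value reached 90, and no WT value was under 250 (log2 change -2.38 ± 0.24 SE, a 5.19-fold decrease, limma adjusted p = 1.19e-05). Kcng2, the other silent subunit tested, averaged 954.7 ± 74.7 in KO and 1120 ± 106 in WT hearts (SD, n = 5 each; limma adjusted p = 0.26). Kcnh2, the pore of the rapid delayed rectifier, had 451.9, 892.8, 885.1, 995.6 and 498.3 in KO hearts, against 1540.5, 1369.7, 1353.1, 1164.4 and 1164.4 in WT hearts. The groups did not overlap, and the change was smaller (log2 -0.89 ± 0.21 SE, limma adjusted p = 0.00864).

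Kcna1, a pore gene best known from neurons, was lower at a low level. Kcna1 averaged 42.9 ± 17.0 in KO and 103 ± 29.3 in WT hearts (SD, n = 5 each; log2 change -1.30, limma adjusted p = 0.0137), without overlap, and this call was lost among libraries with Y-linked expression alone (limma adjusted p = 0.101). Summed Schwann and nerve markers ran from 326.1 to 592.9 in KO and from 533.9 to 737.0 in WT hearts, with 2 of 7 tested markers lower (Mbp, Gfra3), and their part in the values of Kcna1 was not tested. Kcnc1, a pore gene of fast-spiking neurons, averaged 21.3 ± 6.40 in KO and 10.02 ± 5.67 in WT hearts (SD, n = 5 each; log2 change 1.11, limma adjusted p = 0.0425). It was the least stable call, being lost under 14 of 18 alternative settings. Kcna5, Kcna4 and Kcnq1, pores of other repolarising currents, had log2 changes of -0.42, 0.68 and -0.19 and did not pass the test (limma adjusted p = 0.351, 0.37 and 0.709). Nor did Kcne1, the partner subunit of Kcnq1 (log2 change 0.49, limma adjusted p = 0.383).

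Inward rectifiers diverged. Kcnj14 (chromosome 7, 45816460 to 45824782, minus strand), a member of the classical inward rectifier subfamily, had 141.3, 126.8, 110.6, 113.3 and 174.9 normalised counts in KO hearts, against 1153.2, 1056.1, 977.2, 431.8 and 307.4 in WT hearts. The KO values lay close together, while the WT values fell into 3 high and 2 lower ones, and the 2 lower libraries were those with Xist. The log2 change was -2.39 ± 0.33 (SE; limma adjusted p = 0.000187), and -3.00 among libraries with Y-linked expression alone. Of the 75-base windows of Kcnj14 transcripts, 24.6% also occur in the pseudogene Gm5522, which was not analysed here, so the split of reads between them is uncertain. Kcnj3, a G protein-gated channel subunit, had 239.2, 593.8, 527.1, 453.4 and 213.4 in KO hearts, against 916.6, 1143.1, 1069.4, 1120.0 and 1112.3 in WT hearts. It did not overlap and fell 2.86-fold (log2 change -1.52 ± 0.25 SE, limma adjusted p = 0.000665). A gene on the opposite strand covers 31.1% of its exons, and the strand setting used in counting was not given. Its partner subunit Kcnj5 had a log2 change of -0.62 ± 0.39 (SE; limma adjusted p = 0.331).

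Kcnj12, of the background inward rectifier current, averaged 380.1 ± 76.5 in KO and 546.4 ± 58.9 in WT hearts (SD, n = 5 each), without overlap (log2 change -0.54, limma adjusted p = 0.0345). The call of Kcnj12 was lost under 11 of 18 alternative settings, among them scaling of the libraries to equal totals. Kcnj2, the other main gene of that current, had 140.8, 385.0, 283.7, 275.4 and 156.8 in KO hearts, against 313.3, 372.2, 510.9, 410.0 and 375.8 in WT hearts. These groups overlapped (log2 change -0.76 ± 0.32 SE, limma adjusted p = 0.122). The pores of the ATP-sensitive channel did not pass the test, with log2 changes of 0.33 for Kcnj11 and -0.33 for Kcnj8 (limma adjusted p = 0.234 and 0.107). Their regulatory subunits fell: Abcc9 averaged 2125 ± 828 in KO and 4264 ± 1199 in WT hearts (SD, n = 5 each; log2 change -1.06, limma adjusted p = 0.0241), and Abcc8 had a log2 change of -0.54. Kcnj15, which encodes an inward rectifier best known from kidney epithelium, had 44.4, 38.1, 39.3, 26.0 and 41.9 in KO hearts, against 11.7, 10.5, 17.0, 8.21 and 19.7 in WT hearts. All 5 KO values were above the WT values (log2 change 1.48 ± 0.31 SE, limma adjusted p = 0.00374).

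The tandem-pore channels moved in opposite directions. Kcnk3 had 2368.7, 3169.4, 3233.9, 2950.4 and 2381.8 normalised counts in KO hearts, against 5715.5, 4394.6, 4227.6, 4525.5 and 4933.3 in WT hearts. The groups were separate, and the log2 change was -0.76 ± 0.14 (SE; limma adjusted p = 0.00164). Kcnk2, a mechanosensitive leak channel, had 178.4, 88.3, 74.5, 124.8 and 155.2 in KO hearts, against 37.8, 47.2, 72.7, 62.2 and 49.2 in WT hearts. KO library 3 was just above the highest WT library, and the others stood clear of it (log2 change 1.15 ± 0.24 SE, limma adjusted p = 0.0038). Kcnk13, Kcnk5 and Kcnk6 did not pass the test. Antisense overlap covers 12.2% of the exons of Kcnk2.

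Calcium-activated channels included the other 2 members that rose. Kcnn3, of the small-conductance channels, averaged 28.6 ± 8.24 in KO and 13.9 ± 4.94 in WT hearts (SD, n = 5 each; log2 change 1.00, limma adjusted p = 0.0423), with overlap, and the call of Kcnn3 was lost under 10 of 18 alternative settings. Kcnma1, the large-conductance channel of smooth muscle, had 8.03, 15.0, 10.7, 57.3 and 17.1 in KO hearts, against 4.76, 7.41, 0.92, 5.33 and 2.02 in WT hearts. No WT value reached the 10 needed for testing, so Kcnma1 was tested through the group in which it was high. Its rise is therefore not independent of that filter. KO library 4 stood far above the rest (log2 change 1.99 ± 0.62 SE, limma adjusted p = 0.039). The call of Kcnma1 was lost under 9 of 18 alternative settings, among them without KO library 2, 4 or 5 or WT library 1, 3, 4 or 5 and among libraries with Y-linked expression alone (adjusted p up to 0.13). Mural markers, which include smooth muscle genes, summed to 7634 to 8844 in KO and 9379 to 13639 in WT hearts, with 1 of 10 higher (Cspg4) and 2 lower (Acta2, Vtn), and their part in the level of Kcnma1 was not tested.

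Outside the family, 17 genes of channel partners were tested, of which 1 rose and 3 fell, where 8.13% and 8.18% of all genes did so. Dlg4, a scaffold gene, rose (log2 change 0.57), and Ank2, which anchors channels and transporters, fell (-0.56), as did Abcc8 and Abcc9. Of 13 genes of the sodium-potassium pump and of potassium cotransport, Fxyd5 (1.015) and Fxyd6 (0.82) rose, as did 8.13% of all genes, and none passed the test downward.

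In 6-month knockout hearts given the vector, 10 of 47 members differed from untreated knockout hearts (21.3%), against 11.2% of all genes tested. The 6 that were higher included Kcnv2, Kcnip2, Kcna2, Kcnj3 and Kcnk3 (12.8% of members and 5.55% of all genes), and the 4 that were lower were Kcnj14, Kcnn3, Kcne4 and Kcnk2 (8.51% of members and 5.69% of all genes). KO+AAV libraries lay wholly above KO libraries for 6 members and wholly below for 3 (6.68% and 7.44% of all genes). This comparison shares the KO libraries with the comparison of KO and WT hearts, so each is given with its own values and the direction across them is not counted as support.

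Kcnv2 had 339.2, 332.9, 225.4 and 208.1 normalised counts in KO+AAV hearts, against 48.4 to 89.4 in KO hearts. All 4 vector hearts were above all KO hearts (log2 change 2.05 ± 0.26 SE, limma adjusted p = 0.000383), and they overlapped the WT range of 250.7 to 588.5. Kcnip2 had 3046.7, 1900.6, 2371.3 and 2904.1 in KO+AAV hearts, against 627.7 to 1477.4 in KO hearts, again without overlap (log2 change 1.24 ± 0.24 SE, limma adjusted p = 0.00549). Among libraries with Y-linked expression alone, which are 2 of 4 KO+AAV and 5 of 5 KO hearts, the call of Kcnip2 was lost (limma adjusted p = 0.0934). Kcnj3 had 934.1, 596.1, 720.4 and 875.1 in KO+AAV hearts, against 213.4 to 593.8 in KO hearts. The lowest vector heart was just above the highest KO heart, and the log2 change was 1.04 ± 0.26 (SE; limma adjusted p = 0.0202). The call of Kcnj3 was lost without KO+AAV library 1 and among libraries with Y-linked expression alone (adjusted p up to 0.198). Kcnk3 averaged 4000 ± 640 in KO+AAV and 2821 ± 420 in KO hearts (SD, n = 4 and 5; log2 change 0.50, limma adjusted p = 0.0406), a call lost under 12 of 17 alternative settings.

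Kcnd2 did not pass the test against KO hearts. It had 203.3, 144.1, 149.7 and 220.9 normalised counts in KO+AAV hearts, against 23.8 to 189.1 in KO and 240.5 to 534.7 in WT hearts. All vector hearts were below all WT hearts, and 3 of 5 KO hearts lay within the vector range (log2 change 0.97 ± 0.50 SE against KO, limma adjusted p = 0.204, and -1.09 ± 0.50 SE against WT, limma adjusted p = 0.263). Kcnh2 and Kcna1 had log2 changes of 0.64 and 1.09 against KO hearts and did not pass the test (limma adjusted p = 0.0743 and 0.0563). Of the members that rose in KO hearts, Kcnk2 averaged 63.0 ± 7.31 in KO+AAV and 124 ± 43.8 in KO hearts (SD, n = 4 and 5; log2 change -0.90, limma adjusted p = 0.0342). Kcnn3 averaged 12.3 ± 4.29 in KO+AAV and 28.6 ± 8.24 in KO hearts (SD, n = 4 and 5; log2 change -1.15, limma adjusted p = 0.0394). Kcnj15 did not pass the test (log2 change -0.83, limma adjusted p = 0.11).

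Kcna2 and Kcne4 differed between KO+AAV and KO hearts without having passed the test between KO and WT hearts. Kcna2, a voltage-gated pore gene known from axons, had 141.1, 116.2, 49.8 and 35.9 in KO+AAV hearts, against 23.9 to 39.0 in KO hearts, so 1 vector heart lay within the KO range (log2 change 1.24, limma adjusted p = 0.0356). Kcne4, an accessory subunit that inhibits voltage-gated channels, averaged 54.5 ± 21.2 in KO+AAV and 112 ± 42.1 in KO hearts (SD, n = 4 and 5; log2 change -1.04, limma adjusted p = 0.041). The calls of Kcna2, Kcne4, Kcnk2 and Kcnn3 were each lost under 10 or 11 of 17 alternative settings.

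Kcnj14 stood apart from the members above. It had 20.7, 38.2, 46.1 and 33.1 normalised counts in KO+AAV hearts, against 110.6 to 174.9 in KO and 307.4 to 1153.2 in WT hearts. The groups formed 3 separate ranges, with the vector hearts lowest and the untreated wild-type hearts highest. The log2 change was -1.95 ± 0.35 (SE) against KO hearts (limma adjusted p = 0.00352). Against WT hearts it was -4.34 ± 0.35 (SE; limma adjusted p = 4.58e-06), and both calls held under all 17 alternative settings. Kcnj14 was the only member of 47 (2.13%) that differed between KO+AAV and WT hearts, where 1.33% of all genes tested did so (0.611% higher and 0.715% lower). The groups did not overlap for 3 members, against 5.4% of all genes: Kcnn2, a small-conductance calcium-activated channel, lay above (2.73% of all genes), and Kcnj14 and Kcnd2 below (2.67%). Counting Kcnj14, 6 of 47 members had an unadjusted limma p under 0.05 in that comparison, as had 2454 of 13419 genes tested, a larger share. A p that misses the threshold does not show equal levels. For Kcnip2, Kcnj3 and Kcnv2 the log2 changes against WT were -0.37 ± 0.24, -0.47 ± 0.26 and -0.33 ± 0.26 (SE; limma adjusted p = 0.403, 0.339 and 0.47).

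**Figure D3:**
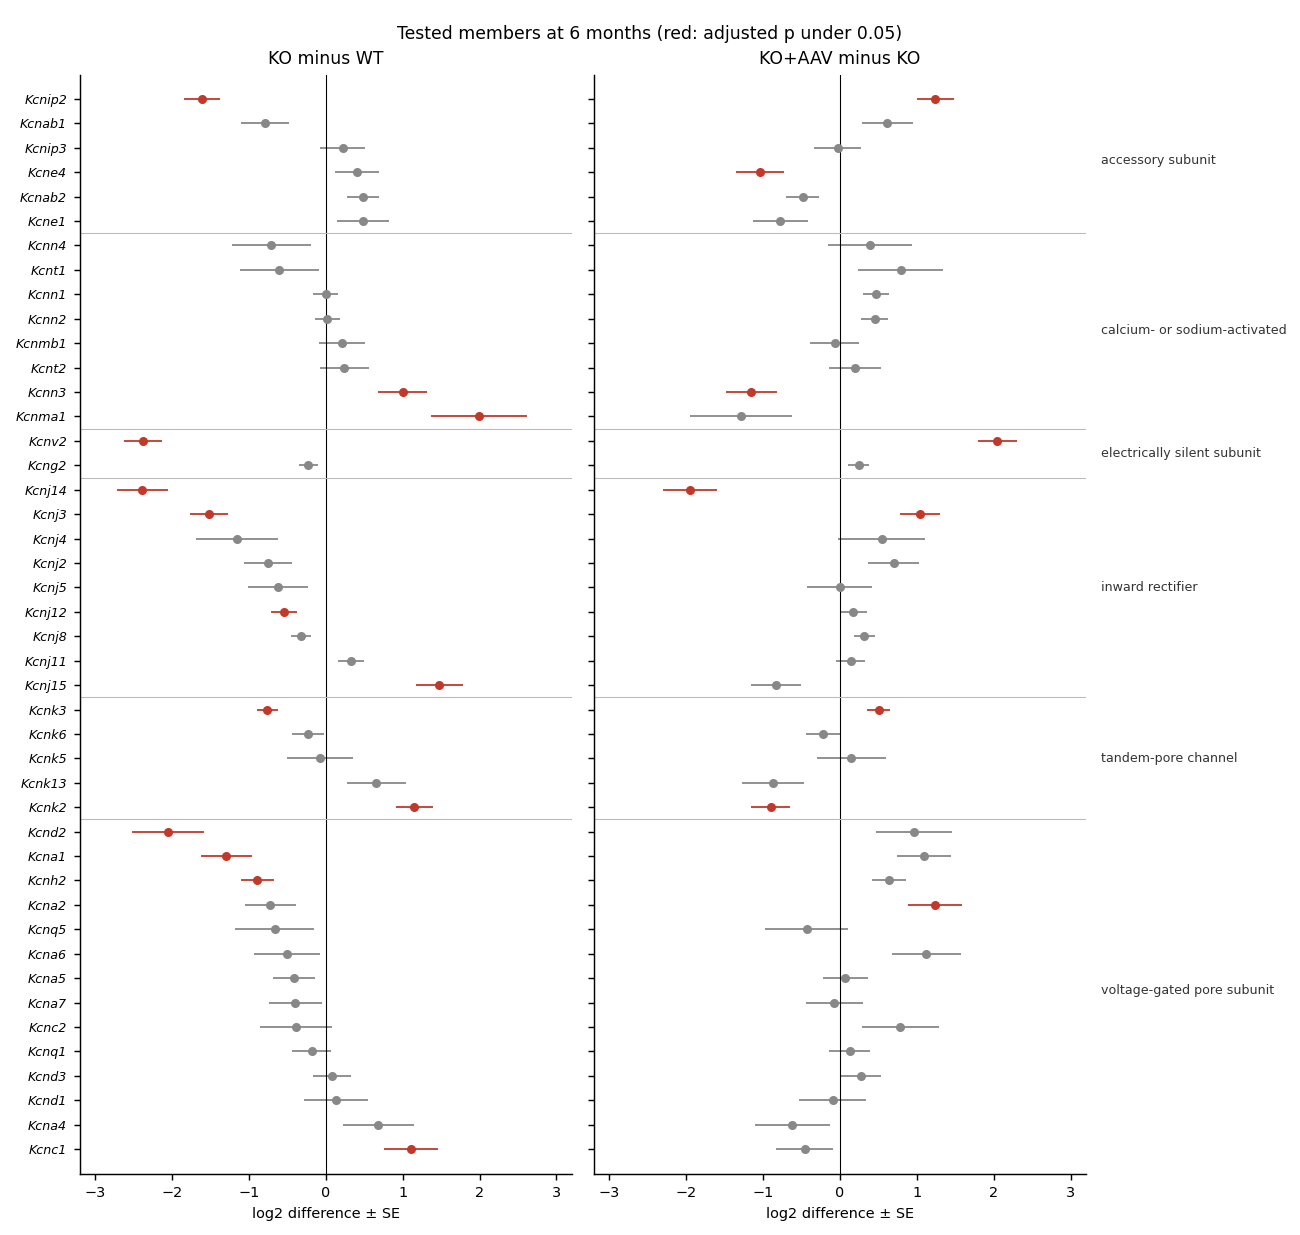
Log2 differences with SE of 44 members tested at 6 months, KO minus WT on the left and KO+AAV minus KO on the right, grouped by channel class. Red points passed the test. Kcnj14 is negative in both panels, and Kcnv2, Kcnip2, Kcnj3 and Kcnk3 are negative on the left and positive on the right, where both panels use the same KO libraries.

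With the vector, 3 of 17 channel partners, 1 of 13 pump and cotransport genes and 1 of 16 transcription factors differed from KO hearts, against 11.2% of all genes tested. Akap5, a kinase anchor, averaged 119.4 ± 19.5 in KO+AAV and 42.9 ± 18.9 in KO hearts (SD, n = 4 and 5; log2 change 1.57, limma adjusted p = 0.00649), Ank2 rose (0.45) and the actin-binding gene Cttn fell (-0.43). Of the pump and cotransport genes Atp1b1 fell (-0.90), and of the transcription factors Esrra rose (0.52). Klf15 averaged 549.7 ± 36.4 in KO+AAV and 531.4 ± 73.4 in KO hearts (SD, n = 4 and 5; limma adjusted p = 0.799). Neither these partners nor the pump genes or factors held a gene that passed the test between KO+AAV and WT hearts. This does not show equal levels: Akap5 averaged 50.2 ± 13.7 in WT hearts (SD, n = 5), below its mean in KO+AAV hearts. Cardiomyocyte markers summed to 1126012 to 1757790 in KO+AAV and 813101 to 1097669 in KO hearts, with 2 of 10 higher, and fibroblast markers to 32472 to 43761 in KO+AAV and 42930 to 59357 in KO hearts, with 4 of 10 lower. Skeletal muscle markers summed to 539.0 to 1656 in KO+AAV and 3091 to 5165 in KO hearts, with 1 of 3 lower (Mybpc2). Mural markers summed to 8404 to 10441 in KO+AAV and 7634 to 8844 in KO hearts, with 3 of 10 higher and 1 lower, and endothelial markers to 25328 to 35722 in KO+AAV and 18059 to 27409 in KO hearts, with 1 of 10 higher (Tie1). Their part in the values of the channel genes was not tested.

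In 6-week hearts the knockout changed 1 of 42 tested members (2.38%), against 0.589% of all genes tested (1 higher, as were 0.378% of all genes). An unadjusted limma p under 0.05 was found for 8 of 42 members and for 2045 of 13242 genes tested. The member that passed was Kcna5 (chromosome 6, 126532551 to 126535412, minus strand), the pore of the ultrarapid delayed rectifier. It had 632.6, 856.3 and 905.7 normalised counts in libraries KO2, KO3 and KO4, against 280.9, 194.3 and 325.8 in libraries WT1, WT6 and WT16. Every KO heart was well above every WT heart (log2 change 1.59 ± 0.23 SE, 3.01-fold, limma adjusted p = 0.0217). The call of Kcna5 was lost without WT6, KO3 or KO4 and without a mean-variance trend, with adjusted p up to 0.133. The atrial marker sums in the same libraries were 76571, 60622 and 44174 in KO and 73510, 66780 and 42820 in WT hearts. Cardiomyocyte markers summed to 378166 to 463831 in KO and 449090 to 666638 in WT hearts. Mural and macrophage sums overlapped between the groups as well. Several other marker sums lay wholly higher in KO hearts. Schwann and nerve markers summed to 1316 to 2141 in KO and 752.0 to 1187 in WT hearts, with 1 of 9 higher (Mbp), and skeletal muscle markers to 561.5 to 1175 in KO and 155.2 to 300.6 in WT hearts, with 1 of 3 higher (Mybpc2). Endothelial markers summed to 17786 to 22598 in KO and 11425 to 15034 in WT hearts, fibroblast markers to 41389 to 47585 in KO and 31774 to 38461 in WT hearts, and conduction markers to 648.2 to 745.7 in KO and 477.4 to 575.9 in WT hearts, with no single marker of these passing the test. The part of these cells and of atrial RNA in the values of Kcna5 was not tested.

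**Figure D4:**
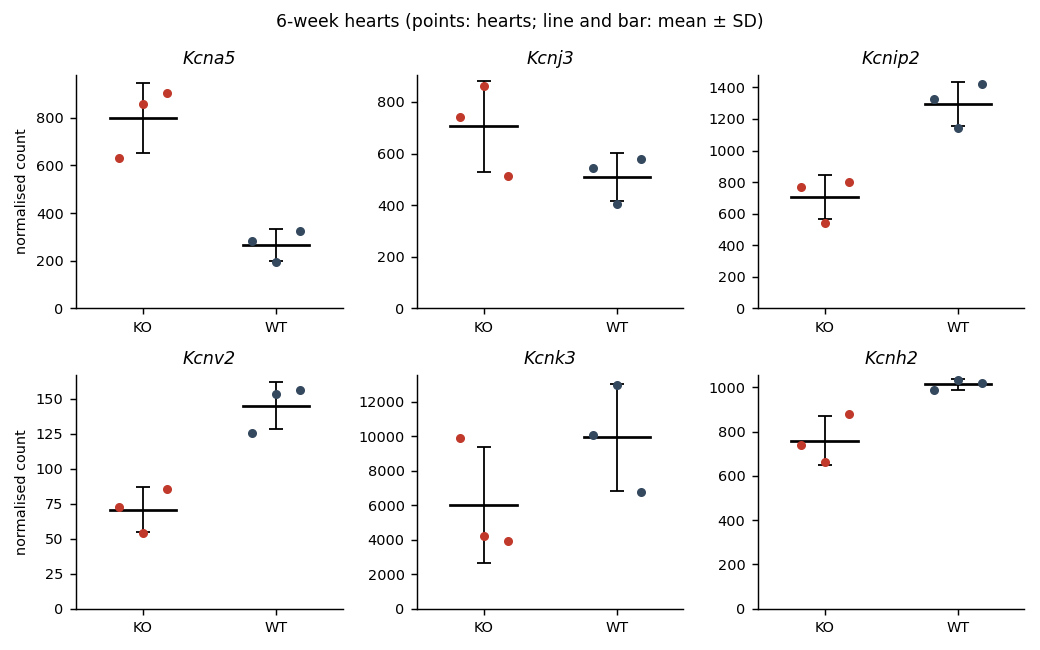
Normalised counts of 6 members in 6-week hearts. Points are libraries of KO hearts on the left and WT hearts on the right, lines are means and bars are SD. Kcna5 is higher in every KO heart, Kcnip2, Kcnv2 and Kcnh2 are lower in every KO heart, and Kcnj3 and Kcnk3 overlap.

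Several members that fell at 6 months had lower values in 6-week KO hearts without passing the test. Kcnip2 had 770.3, 543.8 and 801.5 in KO hearts, against 1325.8, 1142.3 and 1419.5 in WT hearts (log2 change -0.89 ± 0.21 SE, limma adjusted p = 0.0792). Kcnv2 had 72.6, 53.9 and 85.7 in KO hearts, against 125.6, 153.3 and 156.0 in WT hearts (log2 change -1.04 ± 0.25 SE, limma adjusted p = 0.0839). In both, as in Kcnh2 and Kcnj2, the groups did not overlap. KO libraries lay wholly below WT libraries for these 4 of 42 members, as for 10.3% of all genes. They lay wholly above for 3 members, as for 10.9% of all genes, so separation was about as common as among all genes. Among libraries with Y-linked expression alone (2 KO and 2 WT), 4 of 40 members passed the test, Kcnip2, Kcnv2 and Kcnk3 downward and Kcna5 upward. Over all genes, 505 passed in that setting (253 higher and 252 lower), against 78 with all libraries. Kcnk3 had 9915.2, 4238.4 and 3906.2 in KO hearts, against 10092.8, 12957.5 and 6769.4 in WT hearts. Library KO2 lay inside the WT range and the other KO hearts below it (log2 change -0.81 ± 0.36 SE, limma adjusted p = 0.316). Kcnd2 was low at this age, with 21.9 to 38.4 in KO and 36.5 to 47.2 in WT hearts, and its ratio to Kcnd3 per kb was 0.223 to 0.512 in KO and 0.206 to 0.620 in WT hearts. Kcnj14 was at 4.49 to 6.70 in KO and 3.22 to 11.1 in WT hearts and was not tested. None of 15 channel partners, 13 pump and cotransport genes and 16 transcription factors tested passed the test at 6 weeks by limma.

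The knockout difference itself was compared between ages in 38 members tested at both. It differed for 4 (10.5%), against 4.08% of all genes tested, each time with the lower log2 change at 6 months, as in 2.09% of all genes. For Kcnj3 the log2 change was -1.52 at 6 months and 0.46 at 6 weeks, a difference of -1.97 ± 0.34 (SE; limma-based adjusted p = 0.000992). At 6 weeks its values were 740.4, 862.7 and 514.9 in KO hearts, against 543.1, 403.2 and 578.9 in WT hearts, with overlap. For Kcna5 the log2 change was -0.42 at 6 months and 1.59 at 6 weeks, a difference of -2.01 ± 0.36 (SE; limma-based adjusted p = 0.00139). Both held under all 23 alternative settings. Kcna5 at 6 months had 742.5, 379.3, 716.3, 389.9 and 858.2 in KO hearts, against 616.3, 946.2, 590.4, 964.0 and 863.5 in WT hearts, which overlapped widely. For Kcnv2 the difference was -1.33 ± 0.35 (SE; limma-based adjusted p = 0.0275), with lower values in KO hearts at both ages. For Kcna1 it was -1.38 ± 0.39 (SE; limma-based adjusted p = 0.0455), with 169 ± 24.7 in KO and 160 ± 15.5 in WT hearts at 6 weeks (SD, n = 3 each). The calls of Kcnv2 and Kcna1 were lost under 7 and 18 of 23 alternative settings. Kcnj3 and Kcna5 are expressed in atrial muscle, and age and the atrial content of the samples given above cannot be told apart.

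**Figure D5:**
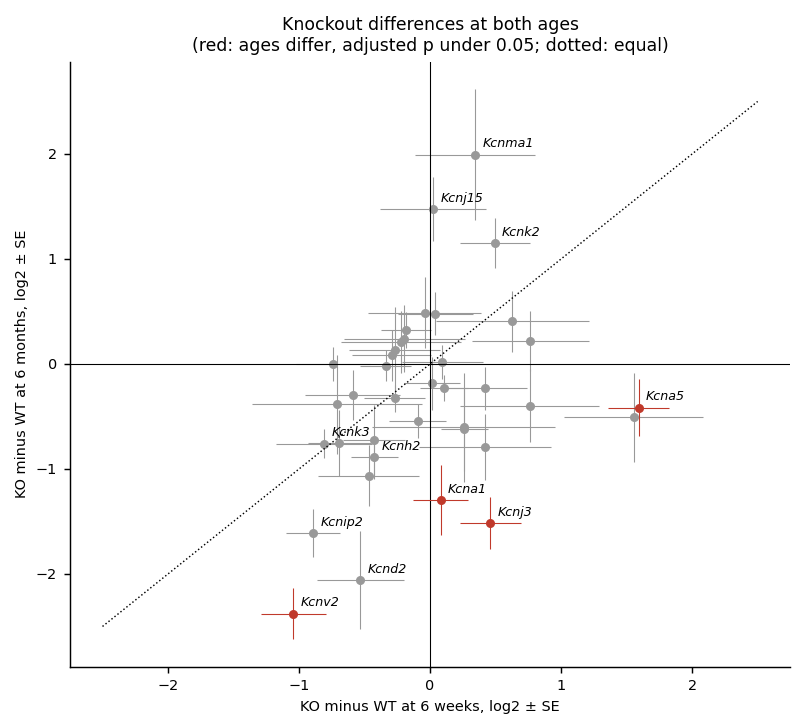
Log2 difference between KO and WT hearts at 6 months plotted against that at 6 weeks for the 38 members tested at both ages, with SE bars. Red points are the members whose differences at the 2 ages differed (Kcnj3, Kcna5, Kcnv2, Kcna1), and the dotted line marks equal differences. Kcnj3 and Kcna5 lie right of 0 at 6 weeks and below 0 at 6 months.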

How the data were processed

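Each age has 1 deposited table of the authors' normalised counts, a signal with fractional values for every gene. Per the labels' protocols, RNA of ventricular myocardium went into stranded poly(A) libraries, and the series text names DESeq2 for the authors' own tests. Per the submitters' processing notes the build was mm10. No source used here gives the aligner, counter or annotation. Whole reads could not be recovered, so the depth behind each value is unknown and no counting intervals are given.

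Values were taken as log2(value + 1). Fold changes on that scale understate changes of low genes. Members were tested with limma 3.58.1 in R 4.3.3 (moderated variances with a mean-variance trend, two-sided), fitted on all genes with a value of at least 10 in 4 libraries at 6 months or 3 at 6 weeks. Adjusted p-values follow Benjamini and Hochberg over 13419 genes at 6 months, 13242 at 6 weeks and 12709 for the age difference. The 3 groups at 6 months shared 1 model. Age differences were divided by the combined standard error of both models. Sorbs2 was compared by exact two-sided permutation tests. The fit was tested on simulated data. Where nothing else is said, n is 5 KO, 5 WT and 4 KO+AAV libraries at 6 months and 3 per group at 6 weeks.

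Groups come from the labels. The 6-week columns name a group but no replicate number. At 6 months a library correlated best with its own number in 0 of 13 like-numbered pairs, so numbers were not taken to pair libraries. The correlations of these pairs ran from -0.391 to 0.253, with 7 above 0.1. Lengths, positions and overlaps come from GENCODE vM21, and promoters from RefSeq (GRCm38.p6). Members named with values are those that passed in any comparison, 16 of the main cardiac currents and the 5 highest per kb. A few of these are counted but not reported here by name. Members and lists were chosen with earlier results of these data known. Python 3.11.15 with pandas 2.3.3, numpy 2.4.6, scipy 1.17.1 and matplotlib 3.10.9 were used elsewhere.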

Additional observations from a re-analysis of the deposited data

Results flagged for a closer look

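Among 78 groups of 4 or 5 libraries checked for the named members, 6 held a library far from the others, and chance gives about 1 in 20. Kcnh2 stood at 1460.6 in KO+AAV library 1, with the next library at 1029.3. KO+AAV library 2 held 192.7 of Kcna1 (next 75.1) and 25.3 of Kcnma1 (next 5.09). Kcnma1 was also high in KO library 4 at 6 months, at 57.28 against 17.1 in the next KO library. In WT hearts at 6 months, Kcne1 reached 104.2 in library 5 (next 46.8) and Kcnj11 reached 1554.8 in library 4 (next 1244.9).

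The knockout difference itself differed between ages for 4 members by the test of the difference. The log2 change at 6 months minus that at 6 weeks was -1.97 for Kcnj3, -2.01 for Kcna5, -1.33 for Kcnv2 and -1.38 for Kcna1.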

How the results depend on the processing

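The number of members that changed between KO and WT hearts at 6 months stayed within 1.5 times of 15 under all 18 alternatives (10 to 13 without a single library, 13 with the replicate block, 11 without KO libraries 1 and 5, 10 among libraries with Y-linked expression). With libraries scaled to equal totals it was 15, 6 higher and 9 lower, while the median log2 change of all genes shifted to 0.16 and all genes split into 1775 higher and 653 lower. Kcnj14, Kcnv2, Kcnip2, Kcnj3, Kcnk3, Kcnj15, Kcnk2, Kcnd2 and Kcnh2 passed under each. Over all genes the count of 2189 became 2071 with the replicate block and 1381 without KO libraries 1 and 5. It was 1479 among libraries with Y-linked expression. Between KO+AAV and KO hearts the count of 10 became 5 with no filter on low values, 5 with the replicate block, 2 among libraries with Y-linked expression, and 3 to 10 without a single library (3 without KO+AAV library 1, 4 without KO library 5, 6 without KO library 1 or 4). All genes called there went from 1509 to 1291 with no filter, 1764 with the replicate block and 332 among libraries with Y-linked expression. They numbered 571 without KO+AAV library 1, 855 without KO library 5, 1816 without KO library 1 and 1032 without KO library 4. Between KO+AAV and WT hearts the count of 1 became 2 without KO libraries 1 and 5 (Kcnd2 added) and stayed at 1 without any single library. At 6 weeks the count of 1 became 0 without a trend, 4 among libraries with Y-linked expression and 0 to 1 without a single library. The 78 calls over all genes became 12 without a trend and 505 among libraries with Y-linked expression. They became 8 without WT6, 10 without KO3 and 7 without KO4, where no member passed. The count of 4 age differences became 2 with equal totals, 2 among libraries with Y-linked expression and 2 to 4 without a single library (2 without KO library 5 at 6 months or WT1, WT6 or KO4 at 6 weeks). Age differences over all genes went from 518 to 428 with equal totals and 624 among libraries with Y-linked expression. They numbered 398 without KO library 5, 537 without WT1, 229 without WT6 and 259 without KO4. The cause of these moves was not tested. No paired analysis was possible at 6 weeks because the columns carry no replicate number, and in no 6-month pair did a library correlate best with its own number. Log2 changes that turned sign all belonged to members that did not pass the test. For KO against WT at 6 weeks, Kcnj12 became 0.039 among libraries with Y-linked expression (-0.195 to 0.087 without a single library), Kcnq1 -0.135 (-0.064 to 0.084) and Kcne1 0.702 (-0.318 to 0.427, and 0.048 with equal totals), and Kcnd3 ranged from -0.583 to 0.075 without a single library. For KO against WT at 6 months, Kcnq1 became 0.168 (-0.339 to 0.034 without a single library) and Kcnj5 0.009 without KO libraries 1 and 5, and Kcnd3 ranged from -0.061 to 0.258 without a single library. Between KO+AAV and KO hearts Kcnj12 became -0.013 without KO libraries 1 and 5. Between KO+AAV and WT hearts Kcna1 became 0.354 and Kcnn3 0.033 among libraries with Y-linked expression (Kcnn3 -0.343 to 0.002 without a single library). With few libraries per group and unknown read depth, small changes of members near a value of 10 could not be resolved.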
